A study of Mus musculus with 3 samples.

Results

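The genes described are 8 complement genes chosen by symbol from the 55357 features of 3 droplet single-cell RNA libraries of mouse lung. They are the C1q chains C1qa, C1qb and C1qc, the alternative pathway components C3, Cfb and Cfp, and the receptors C3ar1 and C5ar1. All 8 were found, and they held 48670, 88272 and 72075 UMIs (counted RNA molecules) in the kept cells of 3 libraries, given in the order PBS, LPS, LPS plus Reg3g here and wherever 3 values follow each other.

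All mice were wild-type C57BL/6, and every group was taken 24 h after a single instillation into the trachea. The groups received PBS (50 µL), LPS (4 mg/kg in 50 µL), a bacterial outer membrane component that sets off acute lung inflammation, or LPS at that dose given together with Reg3g (6 µg), a secreted C-type lectin of epithelia. Each library pooled sorted cells of 3 mice, and each group is 1 library. No test between groups is therefore possible and no p-value is given. Ranges in parentheses are 95% intervals for counting error. They hold nothing of the spread between animals or preparations. The sort kept live CD45-positive, Ly6G-negative, F4/80-positive cells with CD11b or CD11c.

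Complement is a set of secreted proteins and cell-surface receptors that tags microbes and debris and calls in leukocytes. C1q, built from the 3 chains, starts the classical pathway when it binds antibody or dying cells. C3 is the point where all routes meet, factor B (Cfb) supplies the enzyme of the alternative pathway, and properdin (Cfp) stabilises it. The cleavage fragments of C3 and C5 act on the receptors C3ar1 and C5ar1 of myeloid cells. Liver makes most plasma complement, while macrophages and other cells of the lung make part of it locally, and C1q comes largely from macrophages and dendritic cells.

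Cells were clustered with all 48 listed complement genes left out, so that no member took part in forming or naming a class. Of 24 clusters, 6 were alveolar-macrophage-like (3632, 5151 and 4221 cells), 5 monocyte-like (2266, 4342 and 3296) and 1 interstitial-macrophage-like (464, 166 and 128). All 16 alveolar macrophage markers and all 11 interstitial macrophage markers reached 10 CPM (UMIs per 1e+06 UMIs of the class) in their own class in every library. In interstitial-macrophage-like cells 16, 11 and 11 of the alveolar macrophage markers did so too. Their summed level there was 3153, 2175 and 1912 CPM, against 20850, 16690 and 16420 CPM in alveolar-macrophage-like cells. Of the interstitial macrophage markers, 1 reached 10 CPM in alveolar-macrophage-like cells of each library. Cluster 7, led by Arg1, Upp1, Ccl12 and Ccl2, held 0, 1701 and 905 cells and stayed unnamed. Different clusters made up a class in different libraries: with PBS the alveolar-macrophage-like cells were mostly cluster 3 and the monocyte-like cells clusters 5 and 6, whereas with LPS they were mostly clusters 21, 20 and 17 and clusters 10, 11 and 15. Dendritic-cell-like, lymphoid and neutrophil-like cells remained despite the gate, and the neutrophil-like cells held Ly6g at 36.9 and 77.7 CPM in the 2 libraries given LPS. Barcodes shared between pairs of libraries numbered 28 to 37.

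**Figure D1:**
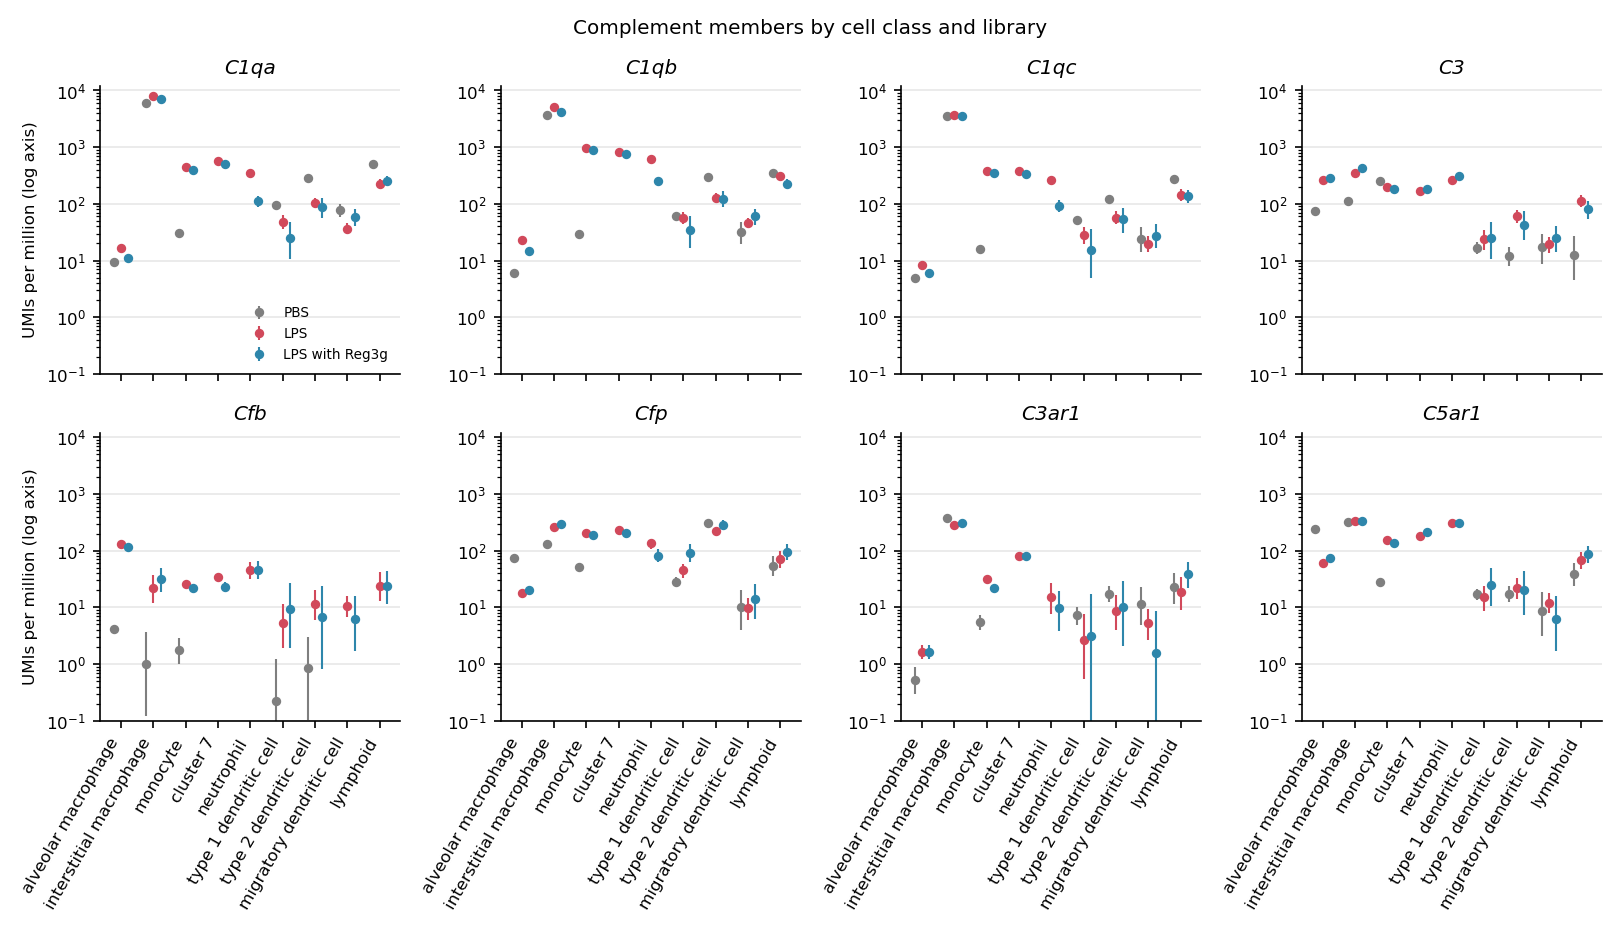
CPM (log axis) of each member in 9 cell classes, for each library with at least 50 cells of the class. Points are summed counts of 1 library and bars are 95% Poisson intervals, and levels of 0 are not drawn. The C1q chains and C3ar1 peak in interstitial-macrophage-like cells, while with LPS Cfb peaks in alveolar-macrophage-like cells at 129 CPM.

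The C1q chains were concentrated in the interstitial-macrophage-like cells in every library. C1qa, the A chain of C1q, stood there at 6009 CPM (5901 to 6119) with PBS, at 7916 CPM (7699 to 8137) with LPS and, with Reg3g added, at 7070 CPM (6860 to 7284). C1qb, the B chain, stood at 3682, 5085 and 4236 CPM, and C1qc, the C chain, at 3574, 3753 and 3516 CPM. LPS against PBS, C1qa was 1.32-fold higher (1.27 to 1.36), C1qb 1.38-fold higher (1.33 to 1.44) and C1qc 1.05-fold higher (1.00 to 1.10). All 3 stayed within 2-fold. When every cell was thinned to 1000 UMIs, which removes differences in depth, all 3 chains were seen together in 87.1%, 89.2% and 85.9% of these cells.

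The 3 genes are neighbours on the minus strand of mouse chromosome 4 (GENCODE M21, GRCm38). C1qb lies at chr4:136880129-136886187, C1qc at chr4:136889804-136893065 and C1qa at chr4:136895917-136898803. Promoter sequences from RefSeq (GRCm38.p6) matched 6 of the 8 members, and not C1qa or Cfb. The windows of C1qb and C1qc are shown because these neighbours move together in the data, and that of C3ar1 because its level over the classes correlates with theirs. Each runs 5′ to 3′ on the gene's strand over 300 bases, with capitals for any match to 5 short motifs on either strand. The windows are chr4:136886151-136886450, chr4:136892865-136893164 and chr6:122856108-122856407, all on the minus strand.
C1qb: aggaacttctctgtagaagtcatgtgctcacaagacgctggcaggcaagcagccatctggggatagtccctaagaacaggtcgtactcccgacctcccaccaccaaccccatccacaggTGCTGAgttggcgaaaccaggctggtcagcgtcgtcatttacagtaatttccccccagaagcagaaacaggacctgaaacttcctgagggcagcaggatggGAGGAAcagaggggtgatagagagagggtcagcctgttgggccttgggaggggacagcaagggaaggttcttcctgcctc
C1qc: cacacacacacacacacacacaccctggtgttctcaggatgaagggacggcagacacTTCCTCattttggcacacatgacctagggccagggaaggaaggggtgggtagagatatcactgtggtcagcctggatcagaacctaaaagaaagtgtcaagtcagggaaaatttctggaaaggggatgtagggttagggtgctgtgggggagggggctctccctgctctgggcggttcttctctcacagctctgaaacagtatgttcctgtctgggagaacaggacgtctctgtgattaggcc
C3ar1: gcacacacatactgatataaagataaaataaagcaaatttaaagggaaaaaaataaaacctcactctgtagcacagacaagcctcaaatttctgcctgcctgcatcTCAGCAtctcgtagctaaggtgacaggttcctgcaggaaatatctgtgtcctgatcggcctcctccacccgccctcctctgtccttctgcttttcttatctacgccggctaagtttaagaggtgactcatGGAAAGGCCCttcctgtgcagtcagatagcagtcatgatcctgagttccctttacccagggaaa

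The motifs searched were GAGGAA (the core bound by PU.1), TGCTGA (a half-site of Maf factors), GAAA repeated after 2 bases of any kind (an interferon response core), TTCNNNGAA (the site type of STAT factors) and GGG and TTTCC with 2 bases of any kind between (an NF-kB type). GAGGAA was found in 3 of the 6 members with a promoter (C1qb, C1qc and Cfp), against 28.3% of 32817 promoters of the same length. TGCTGA was found in 4 of 6 (C1qb, C3, C3ar1 and C5ar1), against 19.5%. The NF-kB type was found in C3ar1 alone, against 1.63%. The interferon response core and TTCNNNGAA were found in none of the 6, against 3.43% and 8.29%. In the printed windows the first capitals of C1qb are TGCTGA and the second GAGGAA. Those of C1qc are GAGGAA read on the other strand, and those of C3ar1 are TGCTGA and then the NF-kB type, both on the other strand. No 2 motif matches overlap, and a match describes letters, not binding.

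In monocyte-like cells the C1q chains were low with PBS and high in both LPS libraries. C1qb stood at 29.2 CPM (25.7 to 33.0) with PBS, at 979.6 CPM (964 to 995) with LPS and, with Reg3g added, at 890.1 CPM (875 to 906). C1qa stood at 30.1, 452 and 394 CPM, and C1qc at 16.1, 377 and 350.5 CPM. LPS against PBS, the ratio was 33.6-fold (29.6 to 38.2) for C1qb, 23.4-fold (19.7 to 27.9) for C1qc and 15.0-fold (13.2 to 17.1) for C1qa. The PBS library lies far below both LPS libraries for each chain, and the LPS libraries lie close together. After thinning, a C1qb UMI was seen in 1.46%, 34.8% and 30.9% of monocyte-like cells and all 3 chains together in 0.132%, 9.28% and 8.31%.

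The C1q level differed between the clusters of the class. Clusters 6, 10, 11 and 15 lay almost wholly with PBS or with LPS, so for them cluster and library cannot be told apart. Cluster 5, led by S1pr5, Cd300e and Ace, was the single monocyte-like cluster with at least 50 cells in every library, and its C1qb level was 20.6 CPM with PBS, at 84.6 CPM with LPS and, with Reg3g added, at 93.4 CPM. Cluster 6, found almost entirely with PBS (1587 of its cells), held C1qb at 22.9 CPM. Clusters 10, 11 and 15, which had 9, 1 and 9 cells with PBS, held C1qb at 1076, 875 and 976 CPM with LPS. Cluster 7, also without PBS cells, held C1qb at 811 and 764 CPM, C1qa at 569 and 496.5 CPM and C1qc at 378 and 330.3 CPM, without and with Reg3g. Within cluster 5 alone the log2 ratio of LPS to PBS was 2.04 for C1qb, 1.92 for C1qc and 1.28 for C1qa, against 5.07, 4.55 and 3.91 over the whole class. The cluster 5 levels with LPS lay below those of lymphoid cells, at 55.7 against 228 CPM for C1qa. For C1qb they were 84.6 against 309 CPM, and for C1qc 47.5 against 144.5 CPM.

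**Figure D2:**
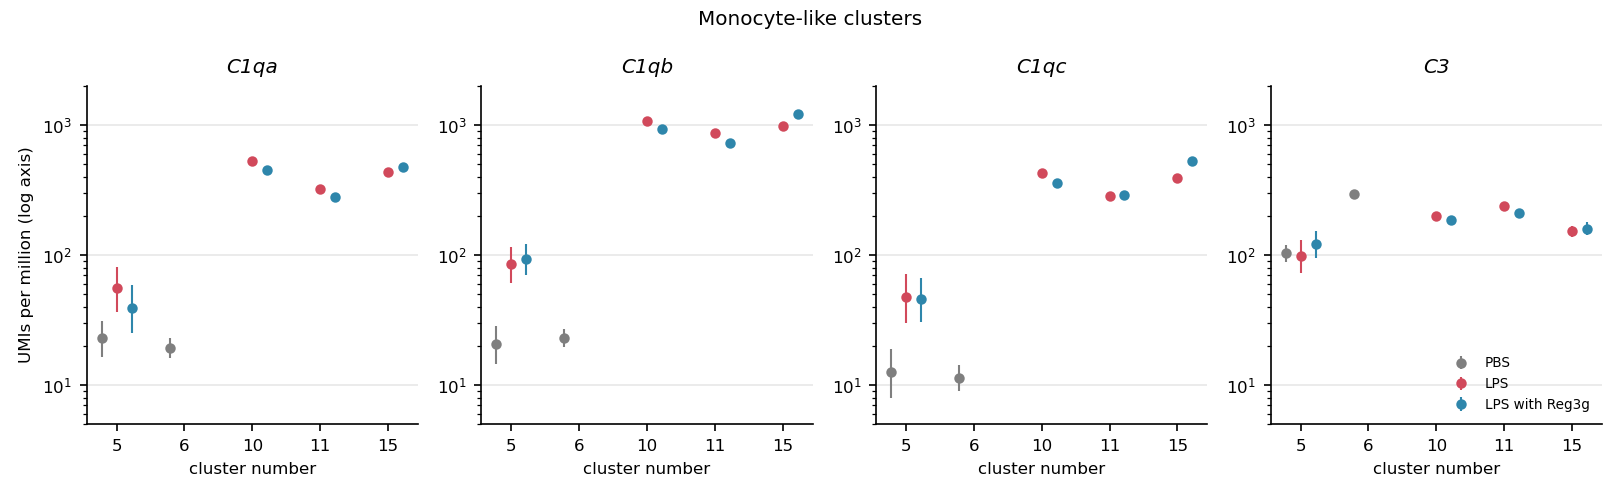
CPM (log axis) of C1qa, C1qb, C1qc and C3 in the 5 monocyte-like clusters, by library, for clusters with at least 50 cells of that library. Points are 1 library and bars are 95% Poisson intervals. C1qb lies at 20.6 and 22.9 CPM in the PBS clusters 5 and 6 and at 875 to 1076 CPM in clusters 10, 11 and 15 with LPS.

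The proportions of the chains differed between the classes. Of the C1q UMIs in interstitial-macrophage-like cells, C1qb made up 27.8% (27.2 to 28.3) with PBS, 30.4% (29.5 to 31.2) with LPS and, with Reg3g added, 28.6% (27.7 to 29.5). In monocyte-like cells it made up 54.2% (53.6 to 54.8) with LPS, and 54.4% (53.8 to 55.1) once Reg3g was added. C1qa took the opposite course, at 47.3% and 47.7% in the interstitial-macrophage-like cells of the LPS libraries against 25.0% and 24.1% in their monocyte-like cells. Cluster 7 lay between, with C1qb at 46.1% and 48.0%. C1qc differed least, at 22.4% and 20.8% in interstitial-macrophage-like and monocyte-like cells with LPS. These shares are of UMIs from 3′ ends and are compared between classes, not between chains.

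The cells that held C1q RNA therefore differed between the libraries, while the level over all cells differed less. C1qa over all kept cells was 282 CPM with PBS and 280.2 CPM with LPS, a log2 ratio of -0.01 (-0.04 to 0.02), and 232 CPM when Reg3g was added. Interstitial-macrophage-like cells held 85.2%, 29.0% and 33.1% of the C1qa UMIs. Monocyte-like cells held 1.85%, 41.0% and 43.9%, and cluster 7 held 23.1% and 17.5% in the LPS libraries. For C1qb the total was higher with LPS, at 182, 423 and 357 CPM, and the monocyte-like share of it was 2.78%, 58.9% and 64.3%. Interstitial-macrophage-like cells were 5.90%, 1.28% and 1.38% of the kept cells, a share that the sort and the number of other cells also set.

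**Figure D3:**
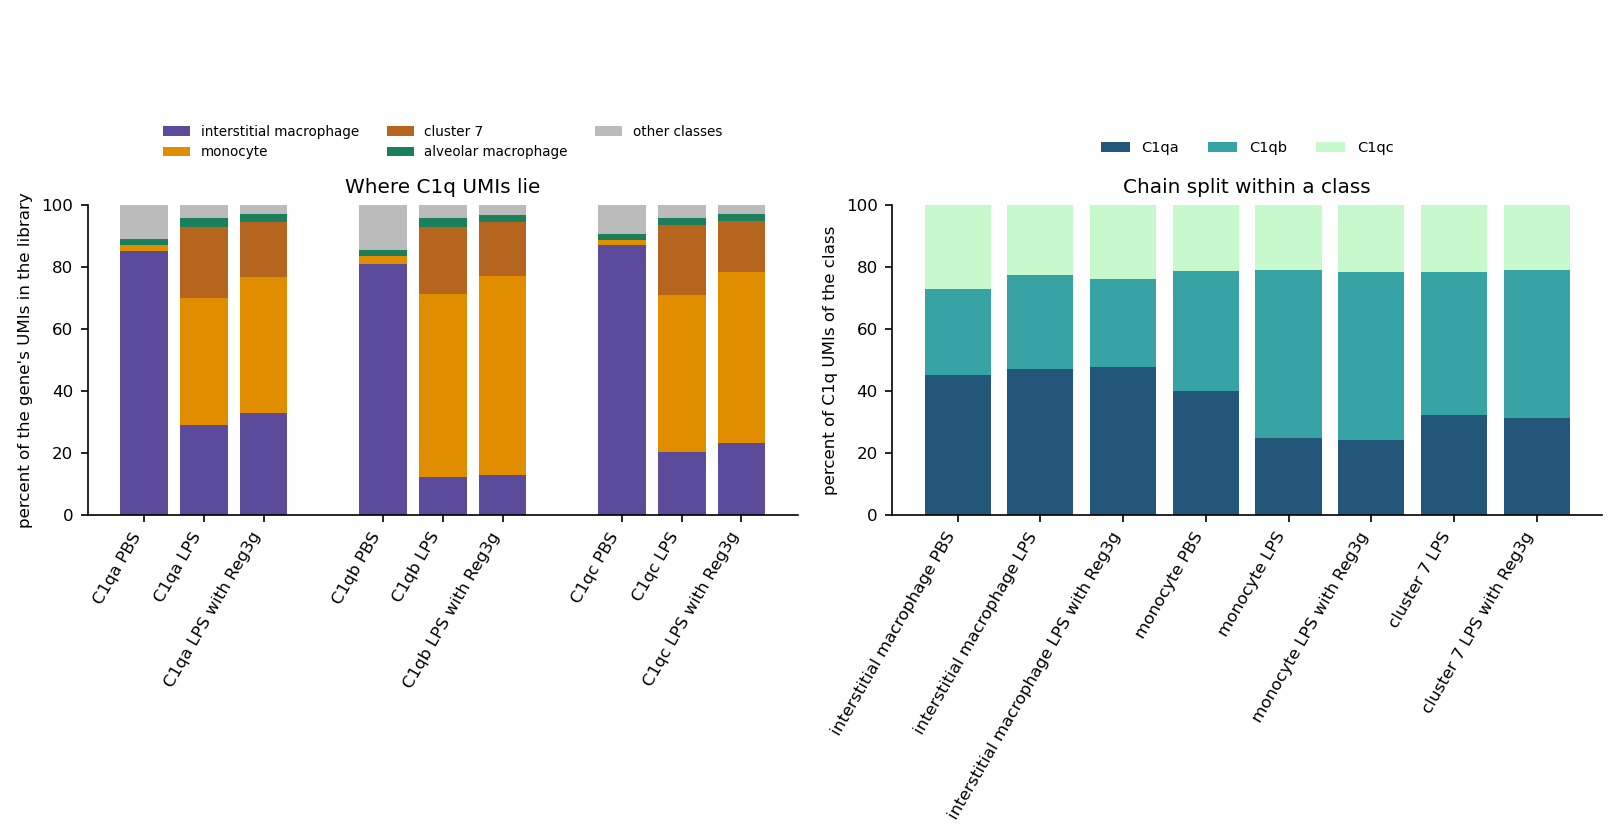
Left, the percent of each library's C1qa, C1qb and C1qc UMIs that lies in each class. Right, the percent of a class's C1q UMIs that comes from each chain. Interstitial-macrophage-like cells hold 85.2% of C1qa UMIs with PBS and 29.0% with LPS, and C1qb makes up 54.2% of C1q UMIs in monocyte-like cells with LPS.

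Outside these classes C1q was seen at low levels that were not alike between types. In alveolar-macrophage-like cells C1qa stood at 9.35, 16.5 and 11.2 CPM and C1qb at 6.05, 22.7 and 14.8 CPM, and C1qc stayed under 10 CPM. In lymphoid cells, which should lack C1q, C1qa stood at 503, 228 and 257 CPM. With PBS this level rested on cluster 8, with 239 of the 242 UMIs in 100 cells, whereas the 66 cells of cluster 14 held 3 UMIs, or 21.1 CPM (4.36 to 61.8). The thinned share of alveolar-macrophage-like cells with a C1qa UMI was 0.771%, 1.73% and 1.21%, at median depths of 7622, 5981 and 7463 UMIs. The lymphoid share was 5.42%, 8.52% and 6.90%, at median depths of 2164, 1864 and 2262 UMIs. Without thinning the shares were 5.31%, 8.23% and 7.11% in the former and 7.83%, 13.6% and 9.48% in the latter. The alveolar-macrophage-like share is thus at or below that of lymphoid cells, as is the 1.63% of monocyte-like cells with PBS. Neither share is therefore told apart from background. The lymphoid reference with PBS rests on cluster 8, however, and 0% of the cells of cluster 14 showed C1qa after thinning. In the lymphoid cells with PBS, 8 of 166 showed all 3 chains after thinning, and 9 of the 11 interstitial macrophage markers reached 10 CPM, against 4 in each LPS library. The part of such cells in the low levels was not tested. Of the C1q UMIs of alveolar-macrophage-like cells, C1qb made up 29.8% with PBS, near its 27.8% in interstitial-macrophage-like cells, and 47.9% with LPS, between the 30.4% and 54.2% of interstitial-macrophage-like and monocyte-like cells of that library.

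The dendritic-cell-like classes held C1q at lower levels. In type 2 dendritic-cell-like cells C1qa stood at 282, 104 and 86.3 CPM and C1qb at 299, 129 and 123 CPM. The thinned share with C1qa there was 8.80% (6.13 to 12.1) with PBS, whose interval overlaps that of lymphoid cells (2.51 to 10.0).

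C3, the central component, was split differently among the cell classes of the PBS and LPS libraries. In alveolar-macrophage-like cells it stood at 75.4 CPM (72.2 to 78.6) with PBS, at 268 CPM (263 to 274) with LPS and, with Reg3g added, at 286 CPM (280.5 to 292). The LPS level was 3.56-fold that of PBS (3.39 to 3.73). In interstitial-macrophage-like cells C3 stood at 114, 351 and 427 CPM, 3.07-fold higher with LPS (2.54 to 3.71). Monocyte-like cells had the highest level of the 3 classes with PBS, at 254 CPM (244 to 265), and the lowest with LPS, at 198 CPM (191 to 205), and stood at 185 CPM with LPS and Reg3g. Their ratio of LPS to PBS was -0.36 on the log2 scale (-0.44 to -0.28).

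Within the monocyte-like cells of the PBS library, C3 was 293 CPM in cluster 6, led by Cd177 and Ccr2, and 103 CPM in cluster 5. Cluster 5 held C3 at 99.0 and 121 CPM in the 2 libraries given LPS, close to its PBS level. Alveolar-macrophage-like cells held 43.3%, 59.4% and 66.7% of the C3 UMIs of the 3 libraries, and monocyte-like cells 43.6%, 22.1% and 19.4%. The thinned share of alveolar-macrophage-like cells with C3 was 6.61%, 23.8% and 24.1%, and the lymphoid share 0.602%, 9.66% and 5.17%. The level of the few structural cells (51 with PBS), which bear endothelial or fibroblast markers, was higher, at 856 CPM with PBS.

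Cfb, factor B, was the member with the largest ratio in alveolar-macrophage-like cells. It stood there at 4.11 CPM (3.40 to 4.93) with PBS, at 129 CPM (125 to 133) with LPS and, with Reg3g added, at 114 CPM (110.2 to 118). The LPS level was 31.3-fold that of PBS (26.0 to 37.9). These cells held 83.6%, 82.0% and 84.6% of all Cfb UMIs. In monocyte-like cells Cfb stood at 1.77, 25.6 and 21.6 CPM, and in interstitial-macrophage-like cells 2, 14 and 19 UMIs were counted. With LPS the lymphoid level was 24.1 CPM (12.8 to 41.2), so that the levels of the last 2 classes were not told apart from that of lymphoid cells. After thinning, 12.1% of alveolar-macrophage-like, 2.63% of monocyte-like and 2.27% of lymphoid cells of the LPS library showed a Cfb UMI. The annotation lists a read-through gene, Gm20547, that shares exons with Cfb on the same strand, and the files count 0 UMIs for it in the kept cells of every library.

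Cfb was uneven among the alveolar-macrophage-like clusters. With LPS it stood at 194 CPM in cluster 22, led by Ifit1 and Cxcl9, at 143 CPM in cluster 21, led by Fstl1, Cyp26b1 and Cxcl3, and at 58.6 CPM in cluster 17, led by Ereg, Tnf and Cxcl1. Cluster 16, led by cell cycle genes such as Cenpf and Aspm, held cells of every library, and there Cfb was 3.37 CPM with PBS, at 108 CPM with LPS and, with Reg3g added, at 77.7 CPM. C3 in the same cluster was 119, 332 and 263 CPM. In cluster 3, where 50 cells of the LPS library lay, C3 was 71.5 CPM with PBS and 220 CPM (159 to 296) with LPS, and Cfb was 4.20 and 20.4 CPM.

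Cfp, properdin, differed in opposite directions between the classes. In alveolar-macrophage-like cells it stood at 75.2 CPM (72.1 to 78.5) with PBS, at 18.2 CPM (16.8 to 19.8) with LPS and, with Reg3g added, at 19.8 CPM (18.3 to 21.4), 4.12-fold lower with LPS (3.76 to 4.53). In monocyte-like cells it stood at 51.8, 203 and 192 CPM, 3.92-fold higher with LPS (3.54 to 4.34). In interstitial-macrophage-like cells it stood at 129, 263 and 299 CPM, 2.04-fold higher (1.67 to 2.49). Type 2 dendritic-cell-like cells had the highest level with PBS, at 305 CPM (283 to 328), and stood at 226 and 285 CPM in the LPS libraries. After thinning, 7.08% of alveolar-macrophage-like cells showed Cfp with PBS and 2.06% with LPS, and the lymphoid shares were 1.81% and 3.41%. The alveolar-macrophage-like share with LPS is thus no higher than the lymphoid one. Monocyte-like cells held 11.4% of Cfp UMIs with PBS and 52.2% with LPS, while the alveolar-macrophage-like share was 55.5% and 9.35%.

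C3ar1, the receptor for the C3a fragment, had its highest level in the same class as the C1q chains. In interstitial-macrophage-like cells it stood at 369.9 CPM (344 to 398) with PBS, at 280.5 CPM (241 to 325) with LPS and, with Reg3g added, at 304 CPM (262 to 351). The log2 ratio of LPS to PBS there was -0.40 (-0.64 to -0.16), opposite in sign to that of C1qa at 0.40 and C1qb at 0.47. Monocyte-like cells held it at 5.53, 32.2 and 21.8 CPM, 5.83-fold higher with LPS than with PBS (4.32 to 8.04), and cluster 7 at 80.0 and 81.6 CPM in the LPS libraries. In alveolar-macrophage-like cells it stayed at 0.527, 1.62 and 1.65 CPM. Interstitial-macrophage-like cells held 81.3% of C3ar1 UMIs with PBS and 13.2% with LPS, and cluster 7 held 41.7% with LPS. After thinning, 2.83% of monocyte-like and 8.29% of cluster 7 cells of the LPS library showed C3ar1, against 0 of 176 lymphoid cells. The lymphoid level was 18.5 CPM (8.88 to 34.1) with LPS, which overlaps the monocyte-like interval (29.5 to 35.2), and 38.8 CPM (22.2 to 63.0) with Reg3g added, above the monocyte-like 21.8 CPM. Without thinning, 9.48% of lymphoid and 7.43% of monocyte-like cells of the latter library showed C3ar1. By CPM the monocyte-like level is therefore not told apart from that of lymphoid cells, whereas cluster 7 lies above the lymphoid level. The intervals of the thinned shares with LPS do separate, at 2.36% to 3.37% in monocyte-like and 0% to 2.07% in lymphoid cells. Cluster 5 held 0 C3ar1 UMIs with PBS and 2 in each LPS library.

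C5ar1, the receptor for the C5a fragment that draws and activates phagocytes, was high in alveolar-macrophage-like cells with PBS and lower with LPS. It stood at 245 CPM (239 to 251) with PBS, at 59.9 CPM (57.2 to 62.7) with LPS and, with Reg3g added, at 73.3 CPM (70.4 to 76.3), 4.09-fold lower with LPS (3.89 to 4.31). In monocyte-like cells it stood at 28.5 CPM (25.0 to 32.3), 155.5 CPM (149 to 162) and 139 CPM (133 to 145), 5.46-fold higher with LPS (4.78 to 6.26). Within cluster 5 it stood at 56.0 CPM (45.5 to 68.3) with PBS and 86.7 CPM (62.5 to 117) with LPS, a log2 ratio of 0.63 that does not reach 2-fold. Interstitial-macrophage-like cells stood at 325, 329 and 332 CPM, and the log2 ratio of LPS to PBS was 0.02 (-0.21 to 0.25). Neutrophil-like cells stood at 308 CPM (269 to 351) with LPS, a level whose interval overlaps that of the interstitial-macrophage-like cells (286 to 377). The thinned share with C5ar1 was 21.7%, 6.45% and 7.37% in alveolar-macrophage-like cells, and the lymphoid share 2.41%, 2.27% and 6.03%. Lymphoid levels were 39.5, 68.5 (48.25 to 94.46) and 87.3 CPM (61.1 to 121). By the level of the whole class, alveolar-macrophage-like cells of both LPS libraries are therefore not told apart from lymphoid cells, whereas with PBS they lie above them. Their thinned share with LPS, at 6.45% (5.79 to 7.15), did lie above the lymphoid 2.27%, while with Reg3g added the shares were 7.37% and 6.03%. Cluster 17 of this class stood at 207 CPM (190 to 225) with LPS, above the lymphoid level. Alveolar-macrophage-like cells held 86.5% of the C5ar1 UMIs with PBS and 30.2% with LPS, where monocyte-like cells held 39.3%.

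Receptors and C1q were also seen in the same cells, which were the deeper ones. With LPS, C5ar1 was detected in 59.6% (54.6 to 64.5) of the 399 monocyte-like cells with C3ar1 and in 32.1% (30.7 to 33.6) of the 3943 without it, at median depths of 4273 and 3040 UMIs. C3ar1 was detected in 13.6% (12.2 to 15.2) of those with C1qb and 4.95% (4.09 to 5.94) of those without, at 3754 and 2614 UMIs. In alveolar-macrophage-like cells with LPS, Cfb was detected in 52.2% of the cells with C3 and 38.4% of those without, at 6460 and 4442 UMIs. These shares are unthinned, and the part of depth in them was not tested.

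Among the alveolar-macrophage-like clusters of the LPS library, C5ar1 spanned 38.4 CPM in cluster 22 to 255 CPM in cluster 3. Cluster 21, the largest with 3095 cells, stood at 38.6 CPM, cluster 20, led by Ear6, Wfdc21 and Marco, at 63.3 CPM, and cluster 17 at 207 CPM. In cluster 3 the level was 252 CPM with PBS and 255 CPM (189.5 to 337) with LPS, whereas in the cycling cluster 16 it was 158 CPM with PBS and 54.1 CPM with LPS. Cfp showed a like order, at 61.3 CPM in cluster 3, 44.3 CPM in cluster 17 and 10.4 CPM in cluster 21. With clusters 3 and 16 alone, each weighted equally, the log2 ratio of LPS to PBS was -0.41 for C5ar1 and -0.50 for Cfp, against -2.03 and -2.04 over the class. The same weighting left C3 at 1.54 and Cfb at 4.09, against 1.83 and 4.97.

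**Figure D4:**
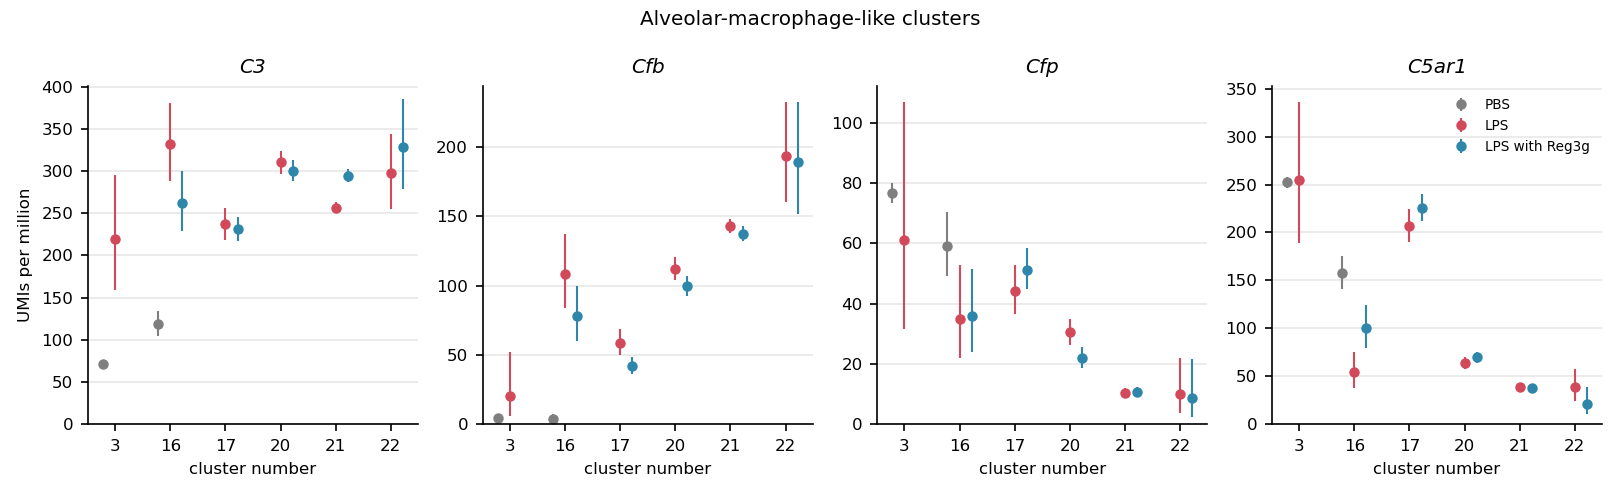
CPM of C3, Cfb, Cfp and C5ar1 in the 6 alveolar-macrophage-like clusters, by library, for clusters with at least 50 cells of that library. Points are 1 library and bars are 95% Poisson intervals. C5ar1 with LPS ranges from 255 CPM in cluster 3 and 207 CPM in cluster 17 to 38.6 CPM in cluster 21, while Cfb is highest in cluster 22 at 194 CPM.

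Counted over members, LPS against PBS, a gene was taken as measured at 10 CPM or more in one of the libraries and as different at 2-fold or more. In alveolar-macrophage-like cells 6 of the 8 members were measured, and C1qb, C3 and Cfb were higher (background over 7839 genes, 5.78%) while Cfp and C5ar1 were lower (background 13.9%). The C1qb level there lay below that of lymphoid cells. In the equal weighting of clusters 3 and 16, 2 members were higher and 0 lower, although in cluster 16 alone C5ar1 was more than 2-fold lower with LPS. In monocyte-like cells all 8 were measured, and the 7 other than C3 were higher (background 9.23%) and 0 lower (background 6.78%). Of these, Cfb and C3ar1 were not told apart from lymphoid cells by level. In cluster 5 alone 5 were higher, without C3ar1, which was under 10 CPM, and C5ar1. Among the 5, the C1q chains and Cfb lay at or below the lymphoid levels with LPS. In interstitial-macrophage-like cells all 8 were measured, and C3, Cfb and Cfp were higher (background 9.61%) and 0 lower (background 16%), with Cfb again at the lymphoid level. With cells thinned to 1000 UMIs, 1 member remained higher there, C3 at a log2 ratio of 1.32, while Cfp lay under the 2-fold limit at 0.56 and Cfb no longer reached 10 CPM. The median log2 ratio was 1.33 over the measured members and -0.25 over all measured genes in alveolar-macrophage-like cells, 3.20 and 0.04 in monocyte-like cells, and 0.43 and -0.10 in interstitial-macrophage-like cells.

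**Figure D5:**
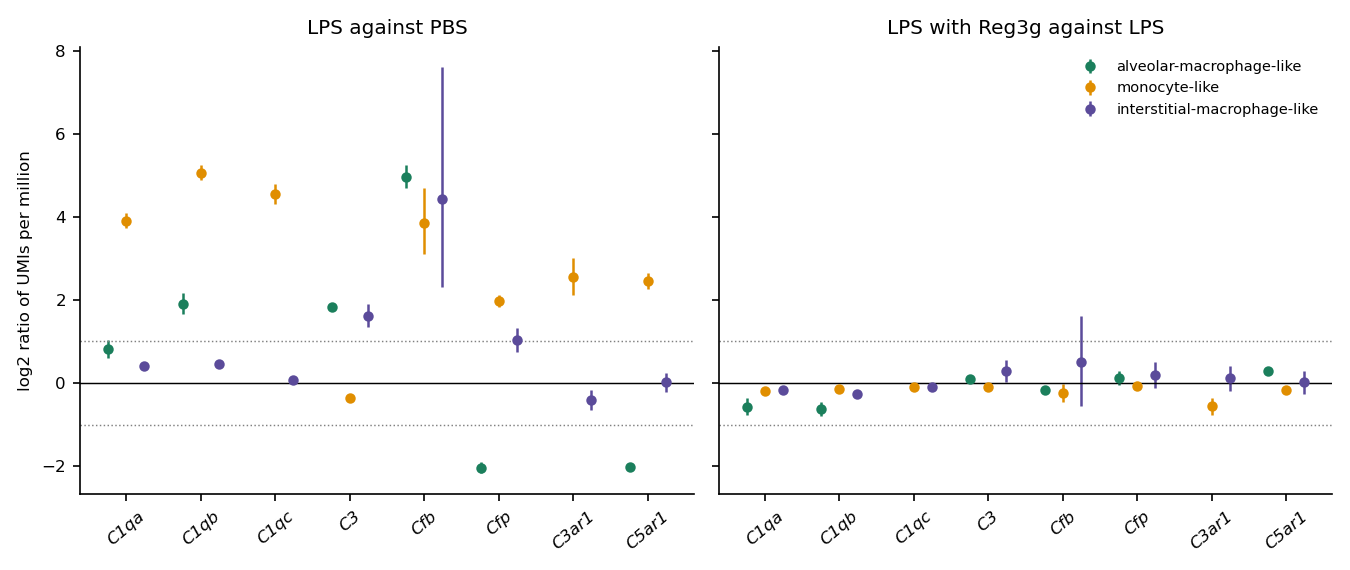
Log2 ratio of CPM for each measured member in 3 cell classes, LPS against PBS on the left and LPS with Reg3g against LPS on the right. Bars are 95% intervals for counting error, and dotted lines mark a 2-fold difference. With LPS, Cfp and C5ar1 lie at -2.04 and -2.03 in alveolar-macrophage-like cells and at 1.97 and 2.45 in monocyte-like cells, and the Reg3g points lie inside the dotted lines.

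Reg3g given with LPS left the members within 2-fold of LPS alone in the 3 main classes. In alveolar-macrophage-like cells 0 of 6 measured members were 2-fold higher (background 0.0279%) and 0 lower (background 0.0698%). In monocyte-like cells 0 of 8 were higher (background 0.121%) and 0 lower (background 0.216%). In interstitial-macrophage-like cells 0 of 8 were higher (background 5.56%) and 0 lower (background 6.78%). Cluster 7 also gave 0 of 8 in each direction (background 0.208% in each). With 1 library each, these counts do not show that the treatments act alike.

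The ratios furthest from equality in these classes rested on low levels. In alveolar-macrophage-like cells the log2 ratio of LPS with Reg3g to LPS was -0.62 (-0.79 to -0.45) for C1qb and -0.57 (-0.77 to -0.37) for C1qa. C3ar1 in monocyte-like cells had one of -0.56 (-0.77 to -0.36). Cfb in cluster 7 had one of -0.58 (-0.93 to -0.25). C5ar1 in alveolar-macrophage-like cells had a ratio of 0.29 (0.20 to 0.38), at levels that overlap those of lymphoid cells. Cluster 17, in which C5ar1 is high at 207 and 226 CPM, held 522 of 5151 such cells with LPS and 693 of 4221 after Reg3g was added, while cluster 21 stood at 38.6 and 37.5 CPM. C3 in alveolar-macrophage-like cells had a ratio of 0.09 (0.05 to 0.14) and Cfb one of -0.18 (-0.24 to -0.11). In monocyte-like cells C1qa stood at -0.20 (-0.25 to -0.15), C1qb at -0.14 (-0.17 to -0.10) and C1qc at -0.10 (-0.16 to -0.05).

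The C1q chains were lower with Reg3g in the neutrophil-like cells. C1qa stood there at 352 CPM with LPS alone and 112 CPM with Reg3g added, C1qb at 617 and 258 CPM and C1qc at 261 and 91.3 CPM. The log2 ratios were -1.65, -1.26 and -1.52, so 3 of 8 members were at least 2-fold lower (background 6.73%) and 0 higher (background 5.15%). Lymphoid cells of the same libraries held C1qa at 228 and 257 CPM, so that the neutrophil-like level lay above theirs without Reg3g and below it with Reg3g. The thinned share with C1qa was 12.99% (8.42 to 18.9) and 4.91% (2.14 to 9.44) in neutrophil-like cells, and both intervals overlap those of lymphoid cells at 8.52% (4.85 to 13.7) and 6.90% (3.02 to 13.1). These are 177 and 163 cells, and the summed level of all 9 neutrophil markers was 23610 CPM without Reg3g and 53080 CPM with it. In the LPS library C1qb made up 50.2% (46.9 to 53.5) of their C1q UMIs, between the 46.1% of cluster 7 and the 54.2% of the monocyte-like cells. All 9 classical monocyte markers reached 10 CPM in the neutrophil-like cells of both libraries, at a summed 5046 and 3745 CPM. Their part in this difference was not tested.

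Of the other 40 listed complement genes, few reached 10 CPM. In alveolar-macrophage-like cells 6 of 40 did, LPS against PBS. Itgam, a chain of complement receptor 3, was higher at 66.0 CPM against 2.15 CPM, and C5ar2, the second C5a receptor, was lower at 5.09 CPM against 28.2 CPM. In interstitial-macrophage-like cells 10 of 40 did, with Cd55, which speeds the decay of the C3 convertase, at 216 CPM against 25.0 CPM, and Itgam at 410.5 CPM against 165 CPM. C5ar2 was lower there, at 11.0 CPM against 33.2 CPM. In monocyte-like cells 5 of 40 did. With Reg3g against LPS, none of the 5 and 4 measured in alveolar-macrophage-like and monocyte-like cells differed by 2-fold. In interstitial-macrophage-like cells 3 of 12 did on few UMIs, namely Fcna with 15 against 48 UMIs, C1ra with 10 against 5 and C2 with 9 against 4. The background in this class was 6.78% lower and 5.56% higher, and the intervals of C1ra and C2 include equality.

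Likeness of pattern was measured as Pearson's r of log2(CPM + 1) over the 26 sums of class and library with at least 50 cells, among 6075 genes outside the complement list. The sums share libraries, so r is a description with no p. C1qa was most like Folr2, Stab1 and Il10 (r = 0.89, 0.88 and 0.86), C1qb like Tmem37, Prxl2b and Il10 (0.87, 0.86 and 0.86) and C1qc like Stab1, Folr2 and Maf (0.89, 0.88 and 0.87). C3 was most like Rhbdf2, Ctsl and Por (0.88, 0.86 and 0.86), and Cfb like Cxcl3, Lcn2 and Esd (0.94, 0.93 and 0.90). Cfp was like Fermt3 and Clec4a2 (0.86 and 0.85). C3ar1 was most like Ccl12, Stab1 and Tmem37 (0.87, 0.86 and 0.85), and C5ar1 like Blvrb, Ctsb and 1700017B05Rik (0.89, 0.88 and 0.88). Folr2, Stab1 and Maf are among the markers that named the interstitial-macrophage-like class. Between members, r was 0.99 for C1qa with C1qc, 0.96 for C1qa with C3ar1, 0.66 for C3 with Cfb, and -0.01 for C1qa with Cfb.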

How the data were processed

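The authors deposited 1 matrix of UMI counts per library, which per the file headers come from Cell Ranger 9.0.1; the values are whole numbers, not normalized. Other tools in the submitters' processing notes are Seurat 4.4.0 and bcl2fastq 5.0.1, with mm10 as the genome build. For the gene annotation, no name is given in the sources used here. A cell was kept if it had 500 or more genes and 1000 or more UMIs, with no more than 15% of them mitochondrial. Presumed doublets were removed by score, taking 0.4% of a library for every 1000 barcodes in it, which left 7860 of 8475, 13015 of 15015 and 9281 of 10213 barcodes with PBS, with LPS and with LPS plus Reg3g, at median depths of 5923.5, 4216 and 5459 UMIs. Scanpy 1.11.5 gave 2000 variable genes, 30 principal components, 15 neighbours and Leiden clusters at resolution 1, over the 3 libraries together and without complement genes. Clusters were named from marker lists by a rule for scoring them that was set after the clusters were seen.

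UMI counts of a class were added up within each library and scaled to the total of that class. Levels carry exact Poisson intervals, ratios exact conditional binomial intervals and shares Clopper-Pearson intervals, all at 95%. Only the ratio intervals were tried on simulated counts. Those were Poisson counts, the model these intervals assume, so the trial does not cover extra spread between cells. UMIs collapse PCR copies, but the intervals cover counting error only. The floor for a count of 0 is 3 counts, so 0 of 176 cells allows a share of up to 1.71%. All 8 members were described in every class of at least 50 cells. Other complement genes were counted, and those at least 2-fold apart with at least 10 CPM were named, at most 4 per class and contrast; the 3 genes most like each member were named at 50 CPM or more in 1 sum. A few genes that these rules would name are not reported here. Members and lists were chosen with earlier results of these data known. Alternatives changed the cell filter, doublet removal, clustering, scaling (edgeR 4.0.16 for the trimmed mean) and weighting of cells. The design has 1 library per group, so no test was run.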

Additional observations from a re-analysis of the deposited data

Results flagged for a closer look

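Cfp and C5ar1 each differed by at least 2-fold in opposite directions between the main cell classes for LPS against PBS, a difference between classes that was not tested, since each group is 1 library. Cfp had a log2 ratio of -2.04 in alveolar-macrophage-like cells, against 1.97 in monocyte-like and 1.03 in interstitial-macrophage-like cells. C5ar1 had a log2 ratio of -2.03 in alveolar-macrophage-like cells, against 2.45 in monocyte-like cells. Over clusters 3 and 16, which the PBS and LPS libraries share, each weighted equally, C5ar1 stood at -0.41 and Cfp at -0.50. Those 2 clusters differed for C5ar1. In cluster 3, with 50 cells of the LPS library, it was 252 CPM with PBS and 255 CPM with LPS. In cluster 16 it was more than 2-fold lower with LPS, at 54.1 CPM against 158 CPM. In the monocyte-like cluster 5, C5ar1 stood at 0.63, under 2-fold, and Cfp at 1.99. Both genes stood high in the PBS-rich cluster 3 and in cluster 17 and low in cluster 21 of the alveolar-macrophage-like cells.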

How the results depend on the processing

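The counts of members 2-fold apart were recomputed under 12 other settings, and 3 more chosen after seeing the data, in 3 classes and 2 contrasts, higher and lower apart. Of these 154 counts, 152 stayed within 1.5 times the reported one. Many of the reported counts were 0, which limits what this shows. They are all counts with Reg3g against LPS, and the lower ones with LPS in monocyte-like and interstitial-macrophage-like cells. With cells thinned to 1000 UMIs, the members higher with LPS in interstitial-macrophage-like cells numbered 1 in place of 3. With the alveolar-macrophage-like clusters 3 and 16 alone, each weighted equally, the members lower with LPS numbered 0 in place of 2; the cause was not tested. Of 615 member log2 ratios, none of those at least 2-fold reversed and 123 left the counting interval of the reported ratio. Scaling by the median of ratios or the trimmed mean moved values of alveolar-macrophage-like cells, LPS against PBS. The median over all genes went from -0.25 to 0.08 and 0.09, and C5ar1 from -2.03 to -1.70 and -1.70. Under both, C1qa there passed the 2-fold limit at 1.15 and 1.16. Over all settings that C1qa ratio ran from -0.83 to 1.34, around the reported 0.82, so its sign was not kept in every setting. In cluster 5 alone, 5 members were higher with LPS in place of 7. Clustering each library alone gave too few interstitial-macrophage-like cells with LPS and Reg3g for that contrast. The clusters of a class differ between libraries, and the 3 pools of mice give no error between animals. Interstitial-macrophage-like levels rest on 128 to 464 cells. No paired analysis was possible because each group has 1 library.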
